A study of Mus musculus with 18 samples.

Results

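The Lgr5 sort and the Sox2 sort, 2 groups of cells sorted from the mouse cochlear sensory epithelium at postnatal day 2, were compared with each other. They are 4 of the 18 RNA sequencing libraries of the study, chosen by their titles, with 2 libraries a sort. The Atoh1 sort, a further native group of 2 libraries, is given beside them, and the other 12 libraries are cultures and were used only to estimate the spread. Of 47729 genes listed, 16592 had at least 1 TPM (a level scaled to gene length and to a fixed total per library) in at least 2 of the 4 libraries and were tested. Each sample came from both ears of 1 pup, and per the labels the epithelium was freed enzymatically from mesenchyme and neurons before RNA was extracted. No source used here gives the reporter, strain or genotype behind each sort, and a Cre and beta-catenin allele described in the shared protocol matches no sample title. Sox2 and Lgr5 are therefore names of sorts here, not of pure cell types.

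The cochlear sensory epithelium holds mechanosensory hair cells and the supporting cells around them. Lgr5, a receptor that strengthens Wnt signaling, marks a subset of supporting cells, and Sox2, a transcription factor, marks supporting cells and prosensory cells more widely. Sox2 is also known in immature glia. Myelinating Schwann cells and satellite glia accompany the spiral ganglion neurons, whose fibers reach the hair cells. The roof of the cochlear duct is a separate epithelium that makes Reissner's membrane and the stria vascularis, and otolith (otoconial) matrix proteins such as otoconin-90 are known best from the vestibular organs.

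Myelin and Schwann cell transcripts separated the 2 sorts most clearly: Pmp22 and Mbp were 95.1 to 422 TPM in the Sox2 sort and 1.95 to 21.7 TPM in the Lgr5 sort. A smaller number of neuronal transcripts, among them Nefh and Gap43, was also lower in the Lgr5 sort. The roof transcription factor Otx2 was detected in the Sox2 sort and listed at 0 in both Lgr5 libraries, whereas the otoconial gene Oc90, whose values lay as far apart as those of Pmp22, did not pass the test. In the opposite direction the largest called difference of a protein-coding gene was that of Trh, which encodes the precursor of thyrotropin-releasing hormone. No member of the lists for supporting cells, for hair cells or for the medial and lateral epithelium passed the test.

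The test was limma on log2(TPM + 1), with p-values adjusted by the Benjamini-Hochberg method over all 16592 genes and a threshold of 0.05. It called 132 genes (0.796% of those tested). Of these, 116 were lower in the Lgr5 sort (0.699%) and 16 were higher (0.0964%). The median difference over all genes tested was -0.036 on the log2 scale. In all 132 genes the values of the 2 sorts did not overlap. An exact permutation test of 2 against 2 libraries gives p = 0.333 for any such gene, so non-overlap alone says little. In 120 of the 132 the sorts were at least 1 apart on the log2 scale, in the same direction, within both replicate numbers. Over all genes tested, 495 were lower by that much in the Lgr5 sort within both numbers (2.98%) and 233 were higher (1.4%). Protein-coding genes made up 81 of the 132, and 74 of them were lower in the Lgr5 sort. Of the 116 lower genes, 81 were under 1 TPM in both Lgr5 libraries, so many calls rest on a transcript that is present in one sort and near or at 0 in the other. Those 81 entered the test only through the Sox2 sort, which fixed their direction.

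These calls depend on the spread shared by all 18 libraries. A limma fit of the 4 libraries alone called 0 genes, with 930 at an unadjusted p under 0.05 and a smallest adjusted p of 0.179, and a fit of the 6 native libraries also called 0, with 1038 at an unadjusted p under 0.05 and a smallest adjusted p of 0.0986. Of the 132 called genes, 78 were under 1 TPM in every one of the 12 culture libraries, against 533 of the 16592 tested. For such genes the cultures can add little spread, so the SE and p-value do not measure the spread among native libraries alone. Foxd3, at most 0.0434 TPM in the cultures, had an adjusted p of 0.00203, and 0.479 in the limma fit of the 4 libraries. Leaving out 1 library at a time gave 83 calls without Lgr5 replicate 1, 47 without Lgr5 replicate 2, 203 without Sox2 replicate 1 and 57 without Sox2 replicate 2. Without Sox2 replicate 1 the share of higher genes among the calls was 23.2%, against 12.1% with all libraries.

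**Figure D1:**
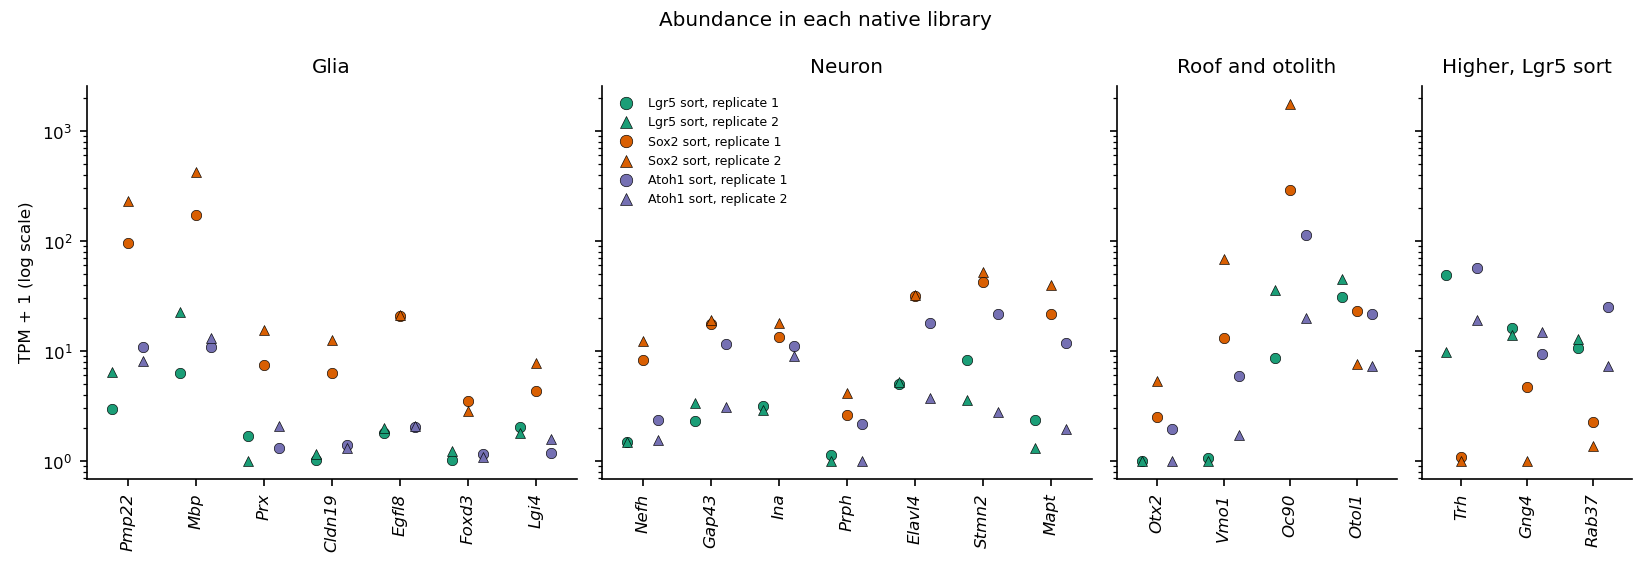
Level of selected transcripts in each of the 6 native libraries, as TPM + 1 on a log axis. Each point is 1 library, colored by sort and shaped by replicate number. The Sox2 libraries lie above both Lgr5 libraries for every glial and neuronal gene drawn. The genes drawn are a choice, and list members that lay the other way, among them Egr2, S100b and Scg2, are not drawn. For Trh both Sox2 libraries lie at the bottom of the axis while the Lgr5 and Atoh1 libraries lie at 8.72 TPM or more.

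The 4 libraries detected similar numbers of genes, 15295 to 16713 with at least 1 TPM, and all 12 housekeeping genes listed were detected in each. Mitochondrial transcripts took 6.25 to 12.7% of the TPM, and Sox2 replicate 2 was highest. Pearson's r between log2(TPM + 1) profiles over the genes tested, a description across genes, was 0.915 between the Lgr5 replicates and 0.907 between the Sox2 replicates, against 0.936 between the replicate 1 libraries of the 2 sorts and 0.884 between their replicate 2 libraries. The labels give the same RNA extraction date and sequencing date to same-numbered libraries of the 2 sorts, so the replicate number was also fitted as a block. The block gave 136 calls, 124 of them among the 132. In these sorted bulk samples, fewer cells of a type and less RNA per cell cannot be told apart.

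The genes that name the sorts did not separate them. Lgr5 was 44.6 and 30.2 TPM in replicates 1 and 2 of the Lgr5 sort, 44.0 and 27.0 TPM in the Sox2 sort and 32.5 and 12.5 TPM in the Atoh1 sort. Sox2 was 140 and 45.7 TPM in the Lgr5 sort against 57.3 and 27.2 TPM in the Sox2 sort, so the ranges of the 2 sorts overlapped (adjusted p = 0.963). Atoh1, the hair cell transcription factor, was 36.2 and 72.6 TPM in the Lgr5 sort, 49.2 and 85.2 TPM in the Sox2 sort and 109 and 162 TPM in the Atoh1 sort.

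Sequences of promoters are given for a myelin gene with a large difference, Pmp22, for the Schwann cell gene Prx, for Trh, the main gene in the opposite direction, and for the roof gene Vmo1, whose values lie apart without passing the test. They run from 250 bases before to 50 bases after the RefSeq transcription start nearest to the gene's annotated 5′ end, on GRCm38.p6, and are written 5′ to 3′ in the direction of the gene. The 21 protein-coding genes that the naming rule took from the calls had an entry in 13 cases. Those 13 promoters and that of Vmo1, chosen after its values were seen, were searched on both strands for 4 motifs: ACAAAG, bound by SOX factors, GCGTGGG, bound by EGR factors, TAATCC, bound by OTX factors, and TGACG, the half-site of the cAMP response element, whose matches on both strands overlap in the full element. Capitals mark the matches.
Pmp22, chr11:63128732-63129031, plus strand: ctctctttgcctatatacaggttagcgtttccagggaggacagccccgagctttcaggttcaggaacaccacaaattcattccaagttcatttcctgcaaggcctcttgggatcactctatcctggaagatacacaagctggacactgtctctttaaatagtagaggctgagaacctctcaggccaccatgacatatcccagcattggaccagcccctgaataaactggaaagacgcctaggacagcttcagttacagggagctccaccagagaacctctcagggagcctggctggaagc
Prx, chr7:27499074-27499373, plus strand: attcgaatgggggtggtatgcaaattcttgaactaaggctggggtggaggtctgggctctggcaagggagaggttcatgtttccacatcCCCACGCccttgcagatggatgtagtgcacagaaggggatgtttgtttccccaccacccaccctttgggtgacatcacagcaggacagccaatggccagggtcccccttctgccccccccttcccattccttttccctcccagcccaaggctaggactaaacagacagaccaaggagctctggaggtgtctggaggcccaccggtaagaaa
Trh, chr6:92244601-92244900, minus strand: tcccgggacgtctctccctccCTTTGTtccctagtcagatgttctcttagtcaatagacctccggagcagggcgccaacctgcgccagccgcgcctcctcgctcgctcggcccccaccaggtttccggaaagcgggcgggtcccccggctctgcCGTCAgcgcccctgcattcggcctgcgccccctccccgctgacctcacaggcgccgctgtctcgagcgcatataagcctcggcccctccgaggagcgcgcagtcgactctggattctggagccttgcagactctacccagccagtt
Vmo1, chr11:70514567-70514866, minus strand: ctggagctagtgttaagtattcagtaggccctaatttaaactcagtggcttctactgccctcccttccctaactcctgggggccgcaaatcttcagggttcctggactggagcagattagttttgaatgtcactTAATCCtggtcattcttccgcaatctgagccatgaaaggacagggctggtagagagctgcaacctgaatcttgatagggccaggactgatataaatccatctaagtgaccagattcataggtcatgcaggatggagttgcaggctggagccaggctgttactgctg

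The SOX motif was found in 2 of the 14 promoters, Egfl8 and Trh, and in 18.7% of 32851 RefSeq promoters of the same length. The EGR motif was found in 2, Prx and Foxd3, against 5.0% of all. The OTX motif was found in 1, Vmo1, against 7.1%, and the half-site of the cAMP response element in 3, Egfl8, Foxd3 and Trh, against 20.8%. A match is a description of these letters and not a site, and Pmp22 has none of the 4 in this window.

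Schwann cell transcripts were higher in the Sox2 sort. Of 16 members of the list for myelinating Schwann cells, 13 were tested, 6 of these were lower in the Lgr5 sort and 0 were higher, and the median difference was -1.39 on the log2 scale. Of the 13, 3 were under 1 TPM in both Lgr5 libraries and entered the test through the Sox2 sort, so the count and median are descriptions. Prx and Cldn19, both called, are among these 3, and their direction was fixed by the filter. The 6 called genes are structural proteins of the myelin sheath or of Schwann cell contacts.

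Pmp22, a tetraspan protein of peripheral myelin that is also made outside the nervous system and spans chr11:63128982-63159547, was 1.95 and 5.49 TPM in the Lgr5 sort, 95.1 and 230 TPM in the Sox2 sort, and 9.89 and 7.08 TPM in the Atoh1 sort. Both Sox2 libraries were far above the other 4, and the difference was -5.09 ± 0.57 on the log2 scale (SE, adjusted p = 0.000928). Mbp, myelin basic protein, was 5.29 and 21.7 TPM in the Lgr5 sort, 170 and 422 TPM in the Sox2 sort, and 9.87 and 11.99 TPM in the Atoh1 sort. Its difference was -4.49 ± 0.64 (SE, adjusted p = 0.00525), and without Sox2 replicate 2 the adjusted p was 0.0777.

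Prx and Cldn19 belong to the contacts of the Schwann cell: periaxin links its membrane to the cytoskeleton, and claudin-19 forms tight junctions within myelin. Prx was 0.672 and 0 TPM in the Lgr5 sort and 6.46 and 14.6 TPM in the Sox2 sort (adjusted p = 0.0208). Cldn19 was 0.0155 and 0.161 TPM in the Lgr5 sort and 5.27 and 11.7 TPM in the Sox2 sort, with a difference of -3.04 ± 0.27 (SE, adjusted p = 0.000146). Pmp22 and Cldn19 passed the threshold whichever of the 4 libraries was left out. Prx missed it without Lgr5 replicate 1 (adjusted p = 0.0554), Lgr5 replicate 2 (0.197) or Sox2 replicate 2 (0.221).

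The other 7 tested members of the list did not pass. Cnp, an enzyme of myelin-forming cells, was 72.4 and 130 TPM in the Lgr5 sort and 167 and 272 TPM in the Sox2 sort, where the ranges did not overlap (difference -1.13, adjusted p = 0.633). Mal, a membrane proteolipid, was 2.07 and 8.41 TPM against 8.96 and 18.8 TPM, and Ugt8a, which makes the lipid galactosylceramide, was 17.0 and 13.4 TPM against 17.3 and 22.3 TPM. Egr2, the transcription factor that drives myelination and that is also an immediate-early gene, lay in the other direction at 471 and 168 TPM in the Lgr5 sort against 216 and 57.9 TPM in the Sox2 sort (difference 1.32, adjusted p = 0.955). Immediate-early and dissociation stress genes lay the same way: 16 of 17 were above 0, 0 were called, the median difference was 0.90, and their summed level was 5339 and 2915 TPM in the Lgr5 sort and 3492 and 1137 TPM in the Sox2 sort. Their part in the values of Egr2 was not tested.

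Summed over its 16 members the Schwann cell list reached 585 and 361 TPM in the Lgr5 sort, 818 and 1294 TPM in the Sox2 sort, and 377 and 278 TPM in the Atoh1 sort. That sum holds Egr2 and Cnp, which were abundant in every native library, and it separates the sorts less than Pmp22 alone. No member was at 0 in either Sox2 library.

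**Figure D2:**
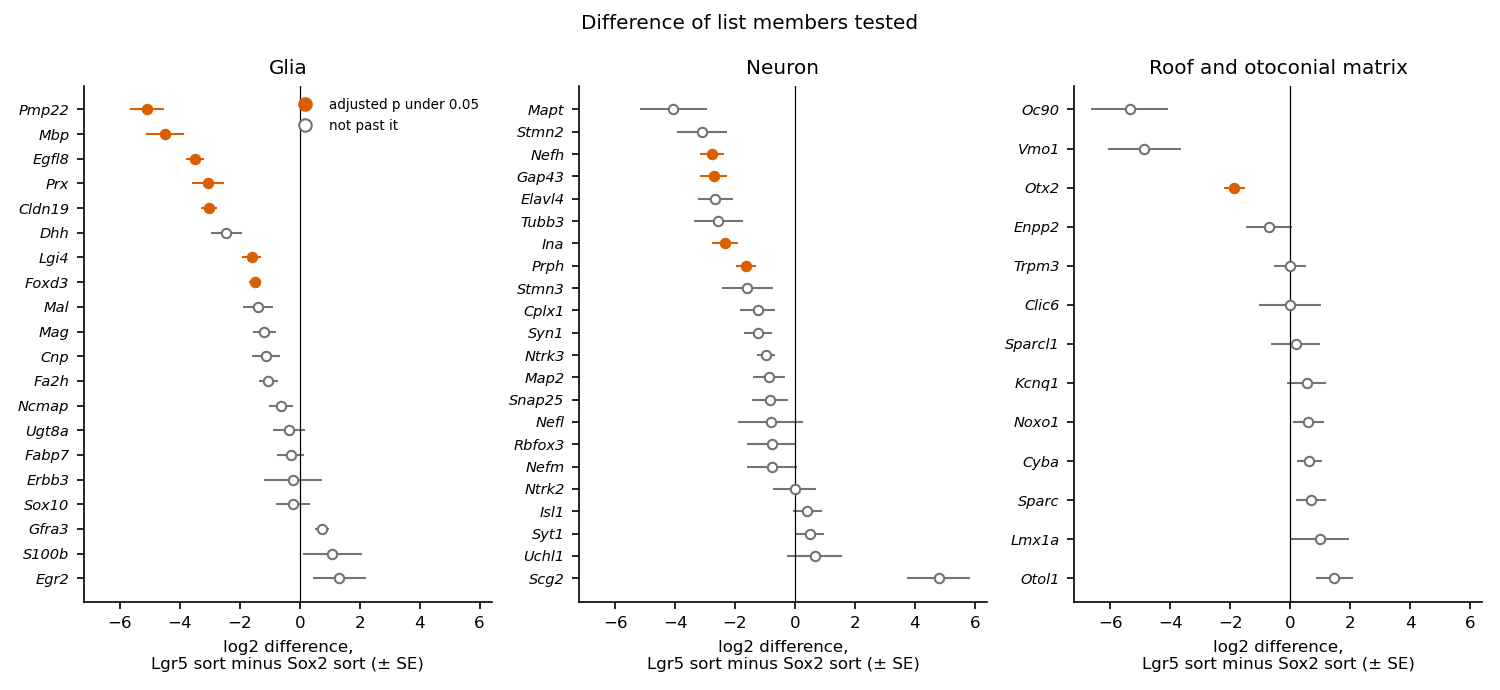
Log2 difference of the tested members of the glial, neuronal, roof and otoconial lists, Lgr5 sort minus Sox2 sort, with the SE of the 18-library fit as bars. Filled points passed the threshold. Members not reported by name are left out, and the glial differences drawn run from Pmp22 at -5.09 to Egr2 at 1.32, and Oc90 at -5.36 has a wide bar (SE 1.28) and is not filled. The value of Otx2, at 0 in both Lgr5 libraries, depends on the pseudocount.

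Of 14 genes listed for other glia, 9 were tested, 3 were lower in the Lgr5 sort and 0 were higher, with a median difference of -0.30. Foxd3, 1 of the 3, entered the test only through the Sox2 sort. Egfl8, a secreted protein with EGF-like repeats, was 0.778 and 1.01 TPM in the Lgr5 sort, 19.9 and 20.3 TPM in the Sox2 sort, and 1.02 and 1.07 TPM in the Atoh1 sort. Its replicates were close, and the difference was -3.48 ± 0.30 (SE, adjusted p = 9.59e-05). Foxd3, a transcription factor of the neural crest and of satellite glia and Schwann cell precursors, was low, at 0.0231 and 0.22 TPM in the Lgr5 sort and 2.53 and 1.83 TPM in the Sox2 sort (difference -1.5 ± 0.18, SE, adjusted p = 0.00203). Lgi4, a secreted protein that Schwann cells need for myelination, was 1.02 and 0.806 TPM against 3.32 and 6.80 TPM (difference -1.60 ± 0.32, SE, adjusted p = 0.0409). Egfl8 and Foxd3 passed with any one library left out, whereas Lgi4 missed the threshold with the replicate block (adjusted p = 0.0523) and without Lgr5 replicate 1 (0.141), Lgr5 replicate 2 (0.245) or Sox2 replicate 2 (0.341).

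Dhh, the hedgehog ligand that Schwann cells secrete, was 0.515 and 2.05 TPM in the Lgr5 sort and 7.91 and 14.5 TPM in the Sox2 sort, just outside the threshold (difference -2.45, adjusted p = 0.0561). Glial genes that the cochlear epithelium also makes did not pass the test. Sox10, a transcription factor of glia and of the otic epithelium, was 45.6 and 33.7 TPM in the Lgr5 sort and 38.4 and 55.0 TPM in the Sox2 sort. Fabp7, a fatty acid binding protein of glia and of the medial epithelium, was 316 and 246 TPM against 432 and 275 TPM. S100b, known in glia and in supporting cells, was 43.5 and 60.6 TPM in the Lgr5 sort and 26.9 and 20.8 TPM in the Sox2 sort, so its values did not overlap and lay in the other direction. Gfap was 0.172 TPM or less in the 4 libraries and Scn7a was at 0 in each.

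**Figure D3:**
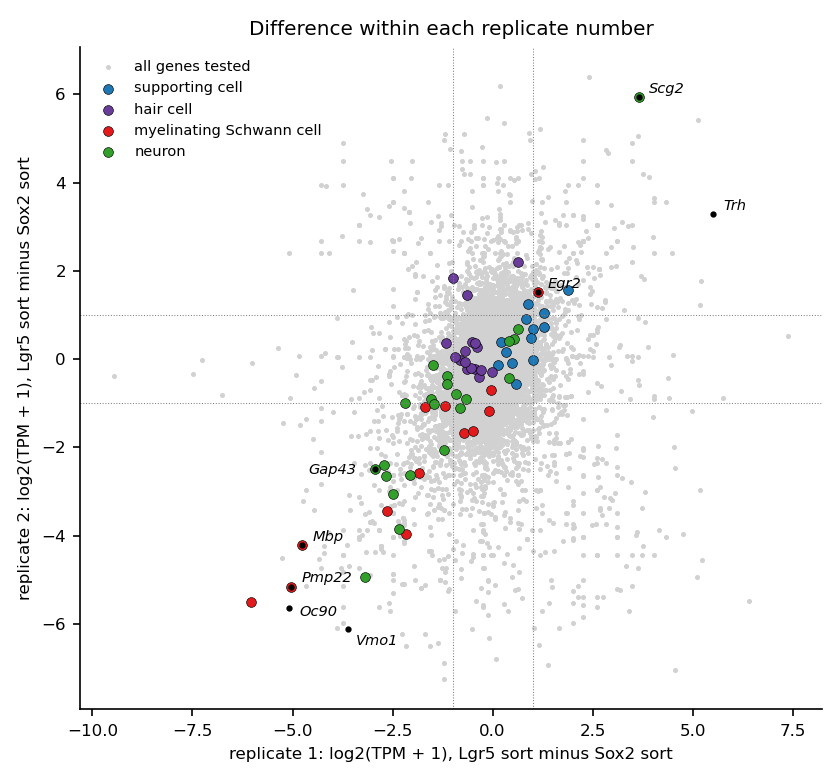
Difference between the sorts within replicate 1 (x axis) and within replicate 2 (y axis), in log2(TPM + 1), Lgr5 sort minus Sox2 sort. Grey points are the genes tested and colored points are members of 4 lists. Dotted lines mark 1 in each direction. Pmp22 and Mbp lie far down in both replicates, most hair cell genes lie between the dotted lines, and Trh and Scg2 lie high in both.

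Of 26 genes listed for neurons, 22 were tested, 4 were lower in the Lgr5 sort and 0 were higher, with a median difference of -1.09, and 9 were lower by at least 1 within both replicate numbers. Nefh and Prph, 2 of the 4 called, were under 1 TPM in both Lgr5 libraries and entered the test only through the Sox2 sort, so their direction was fixed by the filter. The called genes belong to the axon. Nefh, the heavy neurofilament chain, was 0.474 and 0.476 TPM in the Lgr5 sort and 7.34 and 11.3 TPM in the Sox2 sort (difference -2.78 ± 0.40, SE, adjusted p = 0.00539). Gap43, a protein of growth cones, was 1.31 and 2.36 TPM in the Lgr5 sort and 16.6 and 17.97 TPM in the Sox2 sort (difference -2.72 ± 0.46, SE, adjusted p = 0.0165). Ina, the intermediate filament alpha-internexin, was 2.17 and 1.93 TPM against 12.3 and 16.9 TPM (adjusted p = 0.0278). Prph, peripherin, a filament of peripheral neurons, was 0.131 and 0 TPM against 1.64 and 3.15 TPM (adjusted p = 0.0443).

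None of the 4 neuronal genes passed in every fit that left out 1 library. Nefh missed the threshold without Lgr5 replicate 2 (adjusted p = 0.0564) or Sox2 replicate 2 (0.0635), and Gap43 without Lgr5 replicate 1 (0.132), Lgr5 replicate 2 (0.0702) or Sox2 replicate 2 (0.133). Prph missed it with the replicate block (adjusted p = 0.0536) and without Lgr5 replicate 1 (0.149), Lgr5 replicate 2 (0.268) or Sox2 replicate 2 (0.407), and Ina missed it without any one of the 4 libraries, with adjusted p from 0.0511 to 0.264.

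Further neuronal genes had non-overlapping values without passing. Mapt, the microtubule protein tau, was 1.37 and 0.302 TPM in the Lgr5 sort and 20.7 and 38.9 TPM in the Sox2 sort (difference -4.06, adjusted p = 0.204). Stmn2, a microtubule regulator of growing axons, was 7.26 and 2.58 TPM against 41.1 and 50.9 TPM (difference -3.10, adjusted p = 0.188). Elavl4, a neuronal RNA-binding protein, was 3.96 and 4.16 TPM against 30.4 and 31.2 TPM (difference -2.65, adjusted p = 0.0623), and with the replicate block it passed (adjusted p = 0.0479). Nefm and Snap25, which hair cells are also known to make, had closer levels. Nefm was 36.6 and 65.7 TPM in the Lgr5 sort and 81.4 and 85.6 TPM in the Sox2 sort, and Snap25 was 9.10 and 14.8 TPM against 21.1 and 22.3 TPM. Other members were close too, such as Isl1, at 345 and 142 TPM against 259.5 and 107 TPM. The part of hair cell RNA in these values was not tested.

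Of the 22 tested neuron genes 4 had differences above 0, and the difference of Scg2, the granin secretogranin II, was the largest of the 4, at 23.7 and 453 TPM in the Lgr5 sort against 0.955 and 6.38 TPM in the Sox2 sort (difference 4.8 ± 1.05, SE, adjusted p = 0.0699). The Lgr5 replicates differed widely from each other and lay above both Sox2 libraries. The summed level of the neuron list, 5867 and 4753 TPM in the Lgr5 sort and 4200 and 3096 TPM in the Sox2 sort, was set mostly by Uchl1, a deubiquitinating enzyme, which was 5308 and 3870 TPM against 3431 and 2398 TPM. Neurod1, a transcription factor of young neurons, was 0.0236 TPM or less in the 4 libraries and 2.48 TPM in Atoh1 replicate 1, and Thy1 was 0.167 TPM or less.

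In the Atoh1 sort, some neuronal transcripts differed between the replicates and others did not. Atoh1 replicate 1 had Stmn2 at 20.7 TPM, Elavl4 at 16.8 TPM and Mapt at 10.7 TPM, while replicate 2 had 1.79, 2.76 and 0.953 TPM, and Cldn19 was 0.406 and 0.318 TPM in these libraries. Gap43 was likewise 10.5 TPM in replicate 1 and 2.11 TPM in replicate 2. For these 4 neuronal genes Atoh1 replicate 1 lay between the Lgr5 and the Sox2 libraries. Ina, at 10.03 and 7.92 TPM, and Snap25, at 33.2 and 32.5 TPM, were closer between the Atoh1 replicates. Of the myelin genes, Mag was lower in replicate 2, at 1.13 and 0.258 TPM, whereas Mbp was 9.87 and 11.99 TPM.

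Among 12 roof genes, 7 were tested, 1 was lower in the Lgr5 sort and 0 were higher, with a median difference of -0.02. Otx2 and Vmo1 entered the test only through the Sox2 sort, so the direction of the 1 call was fixed by the filter. Otx2, the transcription factor that specifies the roof of the cochlear duct, was listed at 0 in both Lgr5 libraries and was 1.503 and 4.28 TPM in the Sox2 sort and 0.935 and 0 TPM in the Atoh1 sort (adjusted p = 0.0282). It missed the threshold without Lgr5 replicate 1 (adjusted p = 0.145), Lgr5 replicate 2 (0.174) or Sox2 replicate 2 (0.232). Vmo1, a secreted protein first described in the egg's vitelline membrane and made by Reissner's membrane, was 0.0719 and 0 TPM in the Lgr5 sort, 12.2 and 67.9 TPM in the Sox2 sort, and 4.93 and 0.704 TPM in the Atoh1 sort. Its groups did not overlap, but the difference of -4.87 ± 1.23 did not pass (SE, adjusted p = 0.138).

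Of the roof genes too low to be tested, Otx1 and Slc26a7 also had non-overlapping values. Otx1 was at 0 in both Lgr5 libraries and 0.642 and 0.60 TPM in the Sox2 sort, and Slc26a7, an anion exchanger of Reissner's membrane, was 0.039 and 0.00454 TPM against 0.935 and 0.809 TPM, and neither reached the level for testing. The ranges of Lmx1a, Trpm3 and Clic6 overlapped. Lmx1a, a roof transcription factor, was 1.84 and 16.0 TPM in the Lgr5 sort and 1.88 and 3.31 TPM in the Sox2 sort. Trpm3, a cation channel, was 89.3 and 28.7 TPM against 66.4 and 39.7 TPM, and Clic6 was 33.3 and 4.13 TPM against 19.4 and 7.61 TPM. Enpp2, autotaxin, was 3.39 and 1.28 TPM against 3.43 and 4.94 TPM, apart by little. The stria genes Kcnq1, Kcne1, Esrrb and Bsnd, which serve potassium transport or its control, were at 3.99 TPM or less in the 4 libraries, and Bsnd was at 0 in all.

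Oc90 was abundant in the Sox2 sort. It spans chr15:65876053-65912397. Otoconin-90, the main matrix protein of otoconia, had 7.57 and 34.5 TPM in the Lgr5 sort, 289 and 1762 TPM in the Sox2 sort, and 112 and 19.1 TPM in the Atoh1 sort. The 2 sorts did not overlap, yet the replicates of each sort lay far apart and the difference of -5.36 ± 1.28 did not pass (SE, adjusted p = 0.107). With the replicate block it passed, at an adjusted p of 0.0479. Within replicate 1 the difference was -5.08 and within replicate 2 it was -5.64. Replicate 2 had the higher value in the Lgr5 and Sox2 sorts and the lower value in the Atoh1 sort. Of the 14 other settings only this one and a pseudocount of 5 gave an adjusted p under 0.05, and leaving out 1 library gave differences from -6.66 to -4.06.

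The rest of the otoconial list did not follow Oc90. Of 8 genes, 6 were tested, 0 were called, and 5 of the 6 had differences above 0, with a median of 0.62. Otol1, the collagen-like otolin, was 29.6 and 44.1 TPM in the Lgr5 sort and 22.2 and 6.66 TPM in the Sox2 sort (difference 1.48, adjusted p = 0.616). Sparc, a collagen-binding matrix protein, was 3500 and 2705 TPM against 2503 and 1432 TPM, and Sparcl1, its relative, was 432 and 107 TPM against 288 and 125 TPM. Noxo1 and Cyba, subunits of the oxidase needed for otoconia, were 66.0 and 39.5 TPM and 40.9 and 39.5 TPM in the Lgr5 sort, and 47.3 and 23.4 TPM and 36.4 and 17.9 TPM in the Sox2 sort. Nox3, the catalytic subunit, was at 0 in 3 of the 4 libraries and 0.161 TPM in Sox2 replicate 2, and Otop1 was at 0 in all 4. For the tectorial membrane, the gel over the hair cells, 0 of 11 tested genes passed and 10 were above 0, with Tectb at 4399 and 1562 TPM in the Lgr5 sort and 1515 and 507 TPM in the Sox2 sort (difference 1.58, adjusted p = 0.997).

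Trh stood out among the genes higher in the Lgr5 sort. It was 48.5 and 8.72 TPM in the Lgr5 sort, 0.0808 and 0 TPM in the Sox2 sort, and 55.6 and 17.98 TPM in the Atoh1 sort. Both Sox2 libraries lay below the other 4, and the difference between the Lgr5 and Sox2 sorts was 4.40 ± 0.62 (SE, adjusted p = 0.00484). Without Sox2 replicate 2 the adjusted p was 0.0519, and with each other library left out it passed. In the same fit Trh was also lower in the Sox2 sort than in the Atoh1 sort, at -4.98 ± 0.62 (SE, adjusted p = 0.0022), a comparison that shares the Sox2 libraries with the first. In the 12 culture libraries the highest level was 0.264 TPM. The gene spans chr6:92242061-92244650, and its promoter is printed above.

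No other neuropeptide gene passed. Of 15 listed, 6 were tested, all 6 with differences above 0 and a median of 0.75. Trh and Tac1, under 1 TPM in both Sox2 libraries, entered the test only through the Lgr5 sort and could lie only above 0. Npy, neuropeptide Y, was 466 and 434 TPM in the Lgr5 sort and 422 and 200.1 TPM in the Sox2 sort, and Pmch, the precursor of melanin-concentrating hormone, was 23.8 and 31.6 TPM against 11.02 and 23.2 TPM. Genes that process or answer thyrotropin-releasing hormone did not differ past the threshold: of 5 tested, 0 were called. Cpe, the carboxypeptidase that trims peptide precursors, was 264 and 344 TPM against 352 and 347 TPM. Pam, which amidates the peptide, was 5.59 and 3.50 TPM against 8.05 and 10.2 TPM. The receptor gene Trhr was 7.29 and 2.84 TPM in the Lgr5 sort and 4.67 and 2.44 TPM in the Sox2 sort.

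Among the 16 genes higher in the Lgr5 sort, 7 encode proteins, and 13 were under 1 TPM in both Sox2 libraries. The direction of those 13 was fixed by the filter. Gng4, a gamma subunit of G proteins, was 15.3 and 12.9 TPM in the Lgr5 sort and 3.68 and 0 TPM in the Sox2 sort (difference 2.80 ± 0.57, SE, adjusted p = 0.0491). Rab37, a small GTPase of secretory vesicles, was 9.63 and 11.8 TPM against 1.23 and 0.359 TPM (difference 2.74 ± 0.55, SE, adjusted p = 0.0443). Ubb, a polyubiquitin gene that shares reads with its near-identical repeats, was 1747 and 2298 TPM against 1097 and 974 TPM (difference 0.95 ± 0.20, SE, adjusted p = 0.048). All 3 were close to the threshold. Gng4 missed it without Lgr5 replicate 1 (adjusted p = 0.228), Lgr5 replicate 2 (0.215) or Sox2 replicate 2 (0.3), and Rab37 and Ubb missed it without any one of the 4 libraries, with adjusted p from 0.0566 to 0.427 and from 0.0656 to 0.434.

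The epithelial lists gave no calls. Of the pillar and Deiters list 0 of 12 tested genes passed (median 0.60), of the general supporting cell list 0 of 13 (median 0.73), of the medial epithelium 0 of 12 (median 0.21), of the lateral epithelium 0 of 7 (median 0.58) and of epithelial junctions and keratins 0 of 13 (median 0.55). Housekeeping genes were also shifted, with 11 of 12 above 0 and a median of 0.27. Centring each library on its median moved the median of all genes tested from -0.036 to 0.076, a shift of the scale against which these medians stand. Hes5, a Notch effector of supporting cells, was 1901 and 225 TPM in the Lgr5 sort and 285 and 101 TPM in the Sox2 sort, and the spread between replicates exceeded the gap (difference 1.95 ± 1.32, SE, adjusted p = 0.956). Hes1 was 657 and 167 TPM against 178 and 56.0 TPM (difference 1.72, adjusted p = 0.974). Epcam, an adhesion protein of epithelia, was 394 and 299 TPM against 280 and 173 TPM, and S100a1, of pillar and Deiters cells, was 1283 and 1408 TPM against 984 and 677 TPM.

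Lateral and medial markers had single genes apart. Bmp4, a signal from the lateral epithelium, was 15.7 and 16.6 TPM in the Lgr5 sort, 37.2 and 77.1 TPM in the Sox2 sort, and 1.05 and 1.13 TPM in the Atoh1 sort, without passing between the first pair of sorts (difference -1.67, adjusted p = 0.242). Crabp1, a retinoic acid binding protein, was 10.5 and 0.508 TPM against 32.3 and 29.8 TPM (difference -2.94, adjusted p = 0.429). Hair cell genes were abundant in both sorts: 0 of 17 tested passed, with a median of -0.27, and Pcp4, a calmodulin regulator of hair cells, was 1139 and 2349 TPM in the Lgr5 sort and 1531 and 1818 TPM in the Sox2 sort.

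**Figure D4:**
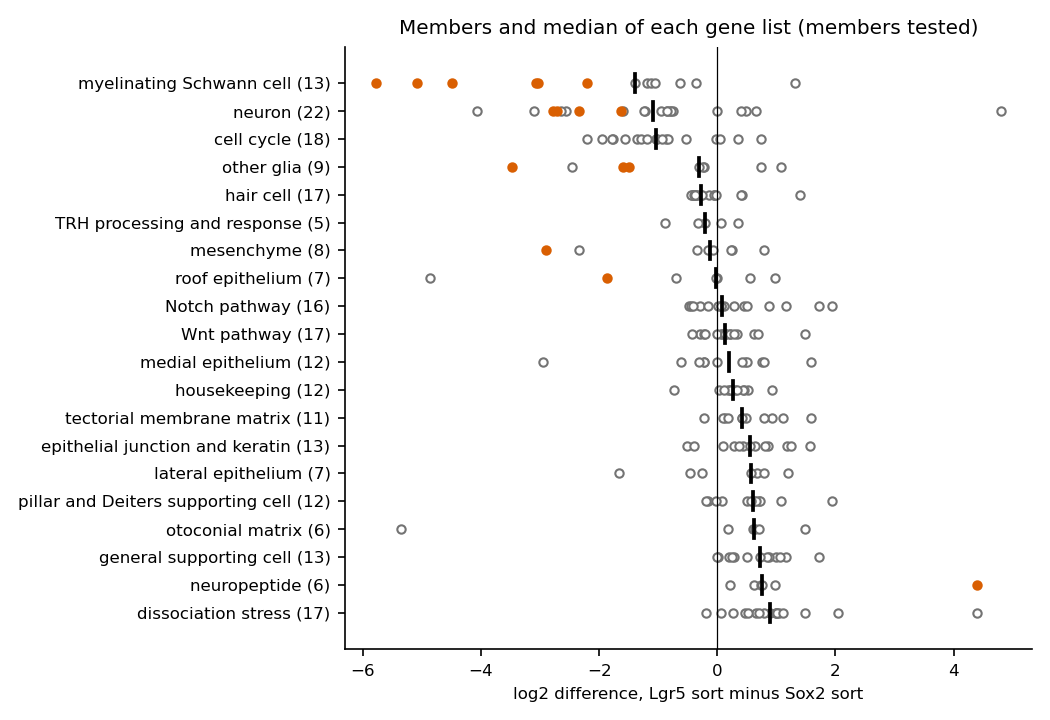
Log2 difference of each tested member of the lists with at least 5 tested members, Lgr5 sort minus Sox2 sort. Filled points passed the threshold, and the black bar is the list's median. Called members occur in the Schwann cell, other glia, neuron, roof, mesenchyme and neuropeptide lists, and the supporting cell, hair cell and epithelial lists have open points only.

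Among markers of other tissues that a sort could hold, mesenchymal genes were the most abundant. Of 8 tested mesenchymal genes 1 passed, Postn, which was under 1 TPM in both Lgr5 libraries and entered the test through the Sox2 sort. Postn, a matrix protein of mesenchyme and of Schwann cell surroundings, was 0.813 and 0.687 TPM in the Lgr5 sort and 13.1 and 11.2 TPM in the Sox2 sort (difference -2.90 ± 0.52, SE, adjusted p = 0.0222). Postn missed the threshold without any one of the 4 libraries, with adjusted p from 0.0734 to 0.154. Col3a1, a fibrillar collagen of connective tissue, was 42.2 and 9.49 TPM in the Lgr5 sort and 105 and 108 TPM in the Sox2 sort, and its values did not overlap (difference -2.34, adjusted p = 0.650). The summed mesenchymal list was 313 and 653 TPM against 420 and 343 TPM, set mostly by Lum, a proteoglycan, at 242 and 596 TPM against 267 and 180 TPM. The part of mesenchymal RNA in the other differences was not tested. Summed immune markers were at most 22.2 TPM, endothelial markers at most 9.93 TPM and melanocyte markers at most 21.2 TPM. Erythroid transcripts moved with single libraries and not with the sort, with a sum of 106 and 1.36 TPM in the Lgr5 sort and 1.72 and 103 TPM in the Sox2 sort.

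Some genes that the naming rule took were in no list. Spock3, a proteoglycan of the nervous system, was 1.31 and 0.887 TPM in the Lgr5 sort and 41.4 and 34.6 TPM in the Sox2 sort (difference -4.22 ± 0.69, SE, adjusted p = 0.0154), and Atoh1 replicate 1 had 17.6 TPM against 1.01 TPM in replicate 2. H2-Q5, annotated as a polymorphic pseudogene of the class I histocompatibility family, a family with near-identical copies, and so uncertain, was 0.124 and 0.0527 TPM against 10.4 and 14.3 TPM (adjusted p = 0.0046). Spock3 missed the threshold without any one of the 4, with adjusted p from 0.0526 to 0.115, and H2-Q5 without Lgr5 replicate 2 (adjusted p = 0.0564) or Sox2 replicate 2 (0.0579).

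MicroRNA genes were 22 of the 132 calls, or 2.98% of the 739 tested, against 0.796% of all genes and 0.636% of protein-coding genes. Of the 22, 20 were lower in the Lgr5 sort, as were 116 of all 132 calls. A TPM here comes from reads over a short hairpin locus in a library not made for small RNA, so it is no measure of the mature microRNA. Mature sequences are shown for 3 of the 5 called microRNA genes that the naming rule took, those with a long-known mature form, with the seed (bases 2 to 8) in capitals, from RefSeq on GRCm38.p6, and miR-92b, from the opposite direction, was chosen after its values were seen. The 5 have 5 different seeds.
miR-338-5p: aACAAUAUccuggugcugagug
miR-338-3p: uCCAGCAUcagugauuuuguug
miR-27b-3p: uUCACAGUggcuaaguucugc
miR-339-5p: uCCCUGUCcuccaggagcucacg
miR-92b-3p: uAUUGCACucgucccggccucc

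Mir338, which spans chr11:120014765-120014862 and is best known from glia, was 3.82 and 0 TPM in the Lgr5 sort, 27.6 and 51.4 TPM in the Sox2 sort and 0 in both Atoh1 libraries (difference -4.14 ± 0.53, SE, adjusted p = 0.00257). It lies on the same strand within an intron of Aatk, a kinase gene of the nervous system, chosen after its values were seen. Aatk was 4.58 and 3.09 TPM in the Lgr5 sort and 27.2 and 53.3 TPM in the Sox2 sort (difference -3.03 ± 0.45, SE, adjusted p = 0.00677), so reads from the host transcript and from the microRNA locus cannot be told apart. Without Lgr5 replicate 2 the adjusted p of Aatk was 0.0825 and without Sox2 replicate 2 it was 0.0777.

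Mir339, within an intron of 3110082I17Rik, was listed at 0 TPM in each Lgr5 library and had 18.4 and 25.7 TPM in the Sox2 sort (adjusted p = 0.00044), while its host was 15.6 and 16.8 TPM against 14.3 and 10.6 TPM. Mir27b, in an exon of 2010111I01Rik, was listed at 0 in both Lgr5 libraries and had 12.3 and 48.0 TPM in the Sox2 sort (adjusted p = 0.0319). Mir6919, in an intron of Mgat4b, and Mir7025, over an exon of Pdgfra, were also at 0 in both Lgr5 libraries and shared the value of Mir27b, 12.3 TPM, in Sox2 replicate 1. Mir92b was 3.82 and 5.40 TPM in the Lgr5 sort and 0 in both Sox2 libraries. Mir339, Mir27b, Mir6919 and Mir7025 entered the test only through the Sox2 sort and Mir92b only through the Lgr5 sort. The direction of all of these was therefore fixed by the filter. Equal values were common among the called genes: 16 of the 132 called genes had the same 4 values as another tested gene. Mir338, Mir339 and Mir7025 passed with any one library left out. Mir27b missed the threshold without Lgr5 replicate 1 (adjusted p = 0.162), Lgr5 replicate 2 (0.197) or Sox2 replicate 2 (0.394), and Mir6919 without any one of the 4, with adjusted p from 0.0595 to 0.313.

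The Atoh1 sort places the 2 sorts among native cells. Between the Lgr5 and Atoh1 sorts 43 genes were called (0.259% of those tested), 35 of them higher in the Lgr5 sort, and the replicate block raised this to 102. Between the Sox2 and Atoh1 sorts 186 were called (1.12%), 164 of them higher in the Sox2 sort. These comparisons share libraries with the first, so the values are set side by side only. Of the 116 genes lower in the Lgr5 than in the Sox2 sort, 73 were also called higher in the Sox2 than in the Atoh1 sort and 4 were called lower in the Lgr5 than in the Atoh1 sort. Because the 116 were picked for high values in the Sox2 libraries, the 73 and the next count follow in part from that choice. In 109 of the 116 both Atoh1 libraries lay below both Sox2 libraries. Pmp22, for example, was 3.99 ± 0.57 higher on the log2 scale in the Sox2 than in the Atoh1 sort (SE, adjusted p = 0.00626), while the difference between the Lgr5 and the Atoh1 sort was -1.10 ± 0.57 (SE, adjusted p = 0.519). Of the 16 genes higher in the Lgr5 sort, 6 were above both Sox2 libraries in both Atoh1 libraries too. These 16 were picked for low values in the Sox2 libraries, so their count has the same limit. For the 109 and the 6, the share over all genes tested is not given here. With the 6 native libraries alone, limma called 0 genes between the Lgr5 and Atoh1 sorts, with 2118 at an unadjusted p under 0.05, and 10 between the Sox2 and Atoh1 sorts.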

How the data were processed

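RNA from sorted cells was measured per sample, and per the labels' protocols cDNA was made with a SMARTer V4 kit from 2.5 ng of RNA and read from 1 end for 75 bp, with kits that do not mark strand. The authors deposited 1 TPM value per gene and library. Per the submitters' processing notes, STAR, Salmon, FastQC, DESeq2 and the build mm10 were used, without stated versions, and no source used here gives the annotation. TPM keeps no depth, so counting error is unknown and no intervals are given. Groups and replicate numbers came from the titles. Gene names and coordinates are from GENCODE M21, which named 47310 of 47729 identifiers, and sequences from RefSeq.

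Values were changed to log2(TPM + 1), which understates changes of low genes. Genes reaching 1 TPM in 2 or more of the 4 libraries were tested with limma 3.58.1 (R 4.3.3), with a mean per group, a trended moderation and all 18 libraries (9 residual and 3 prior degrees of freedom). The script was tested on simulated data with 50 genes shifted at each size. It recovered 20% of shifts of 1 on the log2 scale, 40% of 2 and 86% of 4. It also made 14 false calls among 16392 unchanged genes. Each simulated gene had the same spread in every group, and only genes with a mean above 2 on the log2 scale in the Sox2 sort were shifted. The simulation therefore cannot show errors for genes whose spread is smaller in the cultures than in the native libraries. A list without calls is therefore no sign that its genes have equal levels in the 2 sorts. Further tools were Python 3.11.15, numpy 2.4.6 and pandas 2.3.3. Nothing says that the pups of a group came from separate litters, and an exact permutation test of 2 against 2 libraries cannot go below p = 0.333. Same-numbered Lgr5 and Sox2 libraries share extraction and sequencing dates in the labels, which pairs them, and their deviations from the group means correlated at 0.171 across genes. For replicate 1 the extraction date is later than the sequencing date, so these dates may be wrong.

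The lists and the members were chosen with earlier results of these data known. The naming rule takes Lgr5, Sox2, Atoh1, Trh, Mbp, Pmp22 and Oc90, the 12 lowest and 10 highest called differences without overlap at a mean of 10 TPM or more in the higher group (leaving out ribosomal proteins and clone-like names), up to 6 called and the 2 most abundant uncalled members of each list, and the roof and otoconial lists. Members at least 1 apart within both replicate numbers could be named too. Other members of the lists, named to show defining markers near 0, genes shared with the epithelium or further uncalled members, were chosen after their values were seen. Counts cover every gene, though a few are left unnamed and not reported here. Promoters were searched for the motifs given in the text. Alternatives covered the pseudocount, the filter, the scaling, the libraries fitted, the block, the date and each library left out.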

Additional observations from a re-analysis of the deposited data

How the results depend on the processing

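The call counts between the Lgr5 and Sox2 sorts (132 in all, 16 higher and 116 lower) were 39 (6 and 33) at a pseudocount of 0.1, 249 (42 and 207) with no filter, 18 (1 and 17) with at least 5 TPM in 2 of the 4 libraries, 66 (10 and 56) with libraries centred on their median, and 0 in the fits of 4 or of 6 libraries, with or without the replicate block. With protein-coding genes only, an alternative chosen after seeing the data, 7 were higher. Leaving out 1 library gave 47 to 203 in all, 7 to 47 higher and 39 to 156 lower. The replicate block in 18 libraries gave 136. Between the Lgr5 and Atoh1 sorts the count of 43 became 19 at a pseudocount of 0.1, 110 at 5, 176 with no filter, 14 at 5 TPM, 23 with centring, 72 with quantile normalization, 102 with the replicate block, 93 with the sequencing date as a term, 77 with protein-coding genes only, 0 in the 6 native libraries with or without the block, and 25 to 59 with 1 library left out (25 without Atoh1 replicate 2 and 26 without Lgr5 replicate 1). Between the Sox2 and Atoh1 sorts the count of 186 became 42 at a pseudocount of 0.1, 418 with no filter, 47 at 5 TPM, 119 with centring, 10 in the 6 native libraries, 0 there with the replicate block, and 68 to 236 with 1 library left out (68 without Atoh1 replicate 2 and 83 without Sox2 replicate 2).

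Of the 27 genes that the naming rule took and that were called between the Lgr5 and Sox2 sorts, 25 kept the call with the replicate block (Lgi4 and Prph lost it), 21 with the sequencing date and 9 in every fit that left out 1 library, and none changed sign. Without Sox2 replicate 2, 9 of the 27 kept it. Elavl4 and Oc90 passed only under 2 of the 14 other settings each. Of the 57 genes it took that were tested but not called, 24 changed sign under some setting, so for these the text gives levels and no direction. The cause of these changes was not tested. The fits of 4 and 6 libraries differ from the main fit both in the number of libraries and in which libraries set the spread. Depth is not known, so values near 1 TPM and those of very short genes cannot be given a counting error.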

Other observations

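Cell cycle genes lay lower in the Lgr5 sort without any passing the test. Of 18 tested, 15 had differences below 0, the median was -1.03, 6 were lower by at least 1 within both replicate numbers, and 4 were tested only through the Sox2 sort. Ccnb1 and Rrm2 are among these 4, so their direction was fixed by the filter. Ccnb1, cyclin B1 of mitosis, was 0.607 and 0.0752 TPM in the Lgr5 sort and 4.27 and 3.91 TPM in the Sox2 sort (difference -1.95, adjusted p = 0.0513). Birc5, survivin of the mitotic spindle, was 0.625 and 1.01 TPM against 5.68 and 9.37 TPM (difference -2.20, adjusted p = 0.112). Rrm2, a subunit of ribonucleotide reductase, was 0.915 and 0.738 TPM against 3.66 and 7.48 TPM (difference -1.79, adjusted p = 0.0785), and it passed with the replicate block (adjusted p = 0.0421), with protein-coding genes only (0.0492) and without Sox2 replicate 1 (0.0465). Pcna, a replication clamp, was 26.8 and 20.5 TPM against 24.2 and 13.5 TPM.

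Some called genes outside the lists, chosen after their values were seen, are known from glia, neurons or supporting tissue. Gjc3, a glial connexin, was 0.107 and 0.285 TPM in the Lgr5 sort and 3.87 and 7.05 TPM in the Sox2 sort (adjusted p = 0.00044). Zeb2, a transcription factor that Schwann cells need, was 1.20 and 0.344 TPM against 16.1 and 16.6 TPM (adjusted p = 0.000446). Slc17a7, a vesicular glutamate transporter of excitatory neurons that include the spiral ganglion, was 0.00568 and 0 TPM against 2.63 and 4.10 TPM (adjusted p = 0.00203). Gjc3 and Slc17a7 entered the test only through the Sox2 sort, so their direction was fixed by the filter. Sostdc1, a secreted antagonist of BMP and Wnt ligands, was 2.44 and 7.44 TPM against 30.1 and 43.7 TPM (adjusted p = 0.0278), and it missed the threshold without Lgr5 replicate 1 (0.215), Sox2 replicate 1 (0.0511) or Sox2 replicate 2 (0.267).

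Atf3, an immediate-early transcription factor, had the widest gap of the stress list, at 341 and 148 TPM in the Lgr5 sort and 63.3 and 0.777 TPM in the Sox2 sort (difference 4.40, adjusted p = 0.515). Krt8 and Krt18, the paired keratins of simple epithelia, were 425 and 221 TPM and 326 and 163 TPM in the Lgr5 sort, and 148 and 71.6 TPM and 150 and 68.4 TPM in the Sox2 sort, without passing (adjusted p = 0.813 and 0.916).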
